A study of Oryza sativa Indica Group with 18 samples.

Results

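The CBL calcium sensors and the CIPK protein kinases they bind were examined on whole rice seedlings of 2 cultivars under water deficit. Members were the probe sets annotated to exactly 1 gene whose RefSeq symbol or synonym was CBL or CIPK followed by a number, with or without the prefix Os, and the level of a gene is that of its probe set of highest mean. This gave 31 genes, 7 CBL and 24 CIPK, on 42 probe sets, out of 17905 genes and 57381 probe sets on the array. The RefSeq table names 39 such genes. CBL1, CBL7, CIPK3, CIPK9, CIPK13, CIPK15, CIPK27 and CIPK33 had no probe set assigned to them alone and were not analysed here.

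CBL proteins are small sensors that bind calcium through EF hands when its level in the cytosol rises. Each then docks on a CIPK, a plant kinase of the SnRK3 group, through the NAF motif next to the kinase domain, which releases the kinase from its own inhibition and places it at the plasma membrane or the vacuole. The pairs act on ion transporters, and the best known set potassium uptake, sodium export and nitrogen uptake when roots meet drought, salt or nutrient shortage.

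RNA came from whole seedlings of the Oryza sativa indica cultivars Dagad deshi and IR20, grown for 7 days without soil in a nutrient solution. Drought seedlings were taken from the solution and laid on filter paper for 3 h or 6 h, and the controls of each cultivar stayed in solution for 6 h, so the 3 h groups had no control of their own time. Each of the 6 groups held 3 arrays of the Affymetrix rice genome type, described by the submitters as biological replicates. The labels do not say whether these were separate cultures, so the p-values measure the spread between these arrays only. Levels are given below as log2(intensity + 16), differences as log2 differences with their standard error (SE), and a gene is said to rise or fall where limma gave a Benjamini-Hochberg adjusted p under 0.05 over 40094 probe sets. The pseudocount of 16 makes differences of dim genes smaller than those of log2 intensity alone.

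The control arrays differed from the drought arrays in the 3 prime to 5 prime index, which is often read as a sign of RNA integrity. This mean log2 ratio of 3 prime to 5 prime probe sets for the actin, GAPDH and cyclophilin controls ran from 4.12 to 8.88 on the 6 control arrays and from 1.80 to 3.19 on the 12 drought arrays, with the highest values in Dagad deshi control replicate 1 and IR20 control replicate 2. Whether RNA quality, labelling or the treatment itself set the index was not tested, and because all drought arrays lie below all control arrays, index and drought cannot be fully told apart. Calls against controls that changed when the index was added to the fit, or without those 2 arrays, are given with the genes.

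Tissue markers moved with drought and with the cultivar. Summed over 6 root genes, intensity was 3074 to 3664 in Dagad deshi controls, 4286 to 5113 at 3 h and 4853 to 5124 at 6 h. In IR20 it was 6332 to 9497, 9848 to 10222 and then 12061 to 14642. Single root genes did not all follow the sum. In Dagad deshi 2 of the 6 were called higher and 2 lower at 3 h, and 2 higher and 1 lower at 6 h. In IR20 3 were higher at 3 h and 4 at 6 h, with 0 lower. Summed over 3 shoot genes, intensity was 76924 to 79964 in Dagad deshi controls, 66505 to 69915 at 3 h and 40348 to 45099 at 6 h. In IR20 it was 65661 to 76879, 64835 to 68122 and 52386 to 63006. Called lower were 2 and then all 3 in Dagad deshi, and 1 at each time in IR20, with 0 higher. Over all probe sets tested, 23.6% and 24.7% rose and 47.3% and 45.7% fell at 3 h and 6 h in Dagad deshi. In IR20 14.9% and 20.4% rose and 21.9% and 25.5% fell. The photosynthesis gene OsrbcS had group means of 14.93, 14.44 and 13.44 in Dagad deshi and 14.70, 14.43 and 14.19 in IR20, and CAB2R fell at 6 h in Dagad deshi from 15.52 to 14.97. No marker was at 0 in any array, though the shoot gene RBCS1 stayed under a level of 5. The part of tissue make-up in the differences described here was not tested. In whole seedlings, fewer cells of a type and less RNA per cell cannot be told apart.

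Of the 31 genes, 29 passed the filter on low values. CIPK20 and CIPK30 did not, with levels of 4.33 to 4.43 on all 18 arrays, close to the lowest value the scale can take. In Dagad deshi, 20 of the 29 genes were higher and 7 lower at 3 h than in controls, against 23.6% and 47.3% of all probe sets tested. At 6 h in Dagad deshi 16 were higher and 7 lower, against 24.7% and 45.7%. In IR20, 15 rose and 5 fell at 3 h, against 14.9% and 21.9%, and 16 rose and 5 fell at 6 h, against 20.4% and 25.5%. The median difference of the 29 genes was 1.00 and 0.61 in Dagad deshi and 0.26 and 0.53 in IR20 at 3 h and 6 h, and that of all probe sets tested was -0.03, -0.03, 0.00 and 0.01. Among the brighter 22911 probe sets, 37.7%, 38.5%, 25.5% and 31.4% rose in the same order of comparisons.

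**Figure D1:**
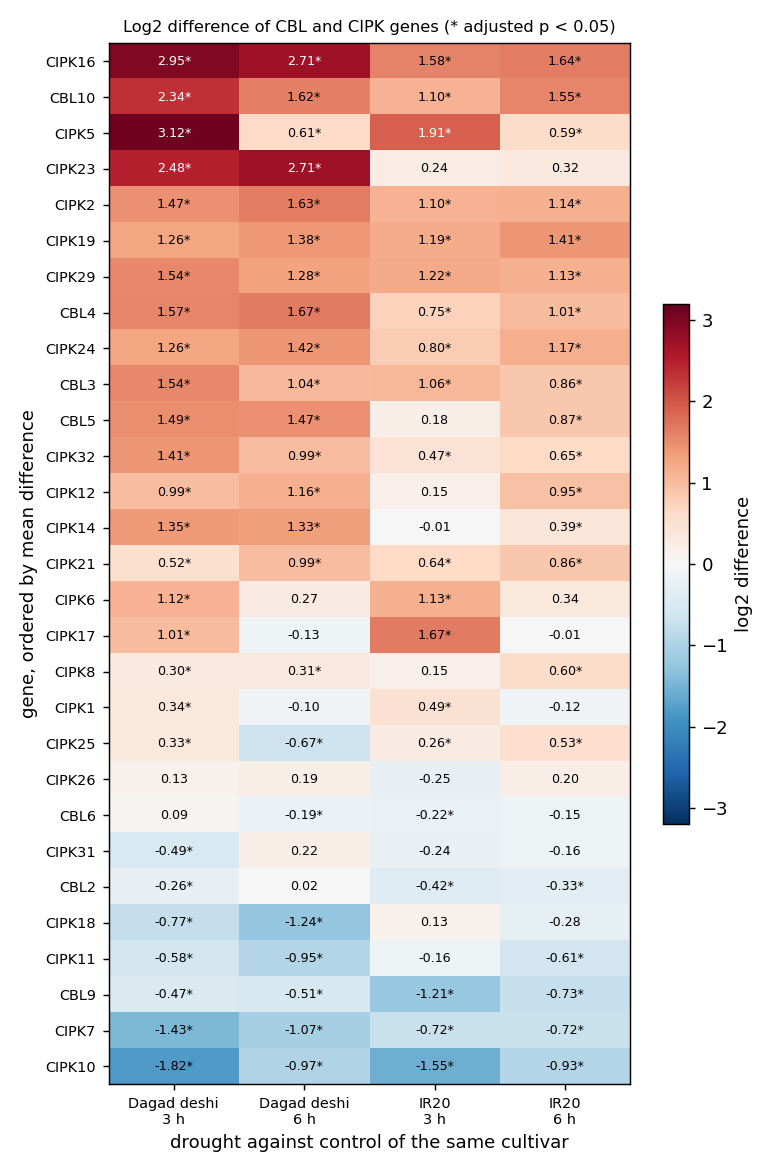
Log2 difference from the control of the same cultivar for the 29 genes that passed the filter (rows, ordered by their mean difference) at 3 h and 6 h in Dagad deshi and in IR20 (columns), with an asterisk where the adjusted p was under 0.05. CIPK16, CBL10 and CIPK5 head the rises, CIPK10 and CIPK7 the falls, and CIPK23 rose by 2.48 and 2.71 in Dagad deshi against 0.24 and 0.32, not called, in IR20.

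With the index in the fit, all 20 and 16 rises in Dagad deshi and all 15 rises at 3 h in IR20 kept their call, as did 15 of 16 at 6 h in IR20. The falls held less often, with 3 of 7 kept at each time in Dagad deshi and 3 of 5 at each time in IR20. Without the 2 control arrays of highest index, 24 of 27 and 21 of 23 calls were kept in Dagad deshi and all 20 and 21 in IR20. Between cultivars, the 15 genes that rose in IR20 at 3 h were all among the 20 that rose in Dagad deshi, and 15 of 16 rises in each cultivar were shared at 6 h. The remaining rise at 6 h was CIPK23 in Dagad deshi and CIPK25 in IR20. Rises shared by the cultivars were not counted over all probe sets, so this sharing cannot be read as particular to these genes.

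Among the sensors, CBL10, CBL3 and CBL4 rose at both times in both cultivars, CBL5 rose in all comparisons but IR20 at 3 h, and CBL9 fell in IR20. CBL2, CBL6 and, in Dagad deshi, CBL9 gave small differences or ones that depended on the fit. CBL10, which in Arabidopsis protects shoots from salt, had the largest difference of the sensors at 3 h in Dagad deshi and at 6 h in IR20. Its levels were 9.29, 8.79 and 8.68 in Dagad deshi controls, 11.31, 11.23 and 11.23 at 3 h and 10.60, 10.49 and 10.52 at 6 h. In IR20 they were 8.74, 8.83 and 8.50 in controls, 9.79, 9.69 and 9.89 at 3 h and 10.38, 10.09 and 10.26 at 6 h. Every drought array lay above every control array of its cultivar. In Dagad deshi CBL10 rose by 2.34 ± 0.13 (5.06-fold) and then 1.62 ± 0.13, and the IR20 rises were 1.1 ± 0.13 and 1.55 ± 0.13, with adjusted p of 9.44e-10, 5.42e-08, 8.56e-06 and 1.31e-07.

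CBL3 belongs, in Arabidopsis, to the sensors of the vacuolar membrane. It read 11.38, 10.71 and 10.73 in Dagad deshi controls and 12.56, 12.45 and 12.45 after 3 h, with no overlap, and rose by 1.54 ± 0.14 (adjusted p = 1.27e-07). The rise was 1.04 at 6 h, and in IR20 it was 1.06 and 0.86 at 3 h and 6 h, each with separate groups. CBL4, the rice counterpart of the sensor SOS3 that drives sodium export, was dim in controls, with a median intensity of 17.5 in Dagad deshi and 40.8 in IR20, and reached 114 and 98.8 at 6 h. It rose by 1.57 ± 0.19 and 1.67 ± 0.19 in Dagad deshi and by 0.75 ± 0.19 and 1.01 ± 0.19 in IR20 (adjusted p = 4.17e-06, 2.10e-06, 0.0054 and 0.000409). Dagad deshi control replicate 1, the array of highest index, read 5.91 for CBL4 beside 5.05 and 5.07, and still lay under all drought arrays.

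CBL5 was near the low end in Dagad deshi controls, at 5.14, 5.16 and 5.11, and stood at 6.68, 6.55 and 6.66 after 3 h and at 6.90, 6.47 and 6.45 after 6 h. The rises were 1.49 ± 0.11 and 1.47 ± 0.11 (adjusted p = 3e-08 and 3.31e-08). In IR20 the control arrays read 5.68, 5.77 and 5.50 and the 3 h arrays 5.88, 5.87 and 5.74, which overlapped, with a difference of 0.18 ± 0.11 (adjusted p = 0.283). Only at 6 h, with 6.5, 6.58 and 6.48, were the IR20 drought arrays apart from the controls, by 0.87 ± 0.11 (adjusted p = 1.39e-05).

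The differences of CBL2 and CBL6 were small and several depended on the fit. CBL2, a vacuolar sensor in Arabidopsis, differed by -0.42 and -0.33 in IR20 (adjusted p = 0.00489 and 0.0193) and by -0.26 and 0.02 in Dagad deshi (adjusted p = 0.0405 and 0.858). None of its called differences passed with the index in the fit, where they were -0.24 and -0.09 in IR20 and 0.14 in Dagad deshi at 3 h. Leaving out single arrays took the call at 3 h in Dagad deshi (without control replicate 1 or 3 h replicate 2 or 3, adjusted p up to 0.216; -0.10 without the 2 control arrays of highest index) and at 6 h in IR20 (without control replicate 3 or 6 h replicate 2, up to 0.0669). Without those 2 control arrays CBL2 was called higher at 6 h in Dagad deshi, by 0.18 (adjusted p = 0.0417). CBL6 stayed within 0.22 of its controls in all 4 comparisons, between -0.22 and 0.09. Its calls at 6 h in Dagad deshi (-0.19) and 3 h in IR20 (-0.22) were lost with the index (0.04 and -0.11) and without any of Dagad deshi control replicate 1, Dagad deshi 6 h replicate 3, IR20 control replicate 2 and IR20 3 h replicate 1 (adjusted p up to 0.0948 and 0.0769). Its 3 h value in Dagad deshi, 0.09 and not called, was called at 0.33 with the index and at 0.16 without the 2 control arrays (adjusted p = 0.0247 and 0.0492), and its 6 h value was then -0.13, not called.

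CBL9 was read by 2 probe sets that went opposite ways in Dagad deshi. The brighter fell by 1.21 and 0.73 in IR20 (adjusted p = 5.17e-05 and 0.00268), calls that were kept with the index in the fit (-1.11 and -0.61) and in all 18 fits that left out an array. In Dagad deshi it fell by 0.47 and 0.51 (adjusted p = 0.026 and 0.0176). The other rose by 0.94 and 0.97 in Dagad deshi (adjusted p = 0.000332 and 0.000251) and differed by -0.52 and 0.04 in IR20 (adjusted p = 0.0336 and 0.86), of which the 3 h fall lost its call in 4 of the fits that left out an array (adjusted p up to 0.165). With the index in the fit it was at 0.06 and 0.10 in Dagad deshi, not called. Both are of a type that can bind several transcripts, and the direction of CBL9 in Dagad deshi was not settled. The Dagad deshi falls also lost their call with the index in the fit (-0.26 and -0.30) and without control replicate 1, the array of the 2 that belongs to this cultivar (-0.30 and -0.34), and at 3 h without control replicate 2 or 3 h replicate 2 or 3 (adjusted p up to 0.13).

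**Figure D2:**
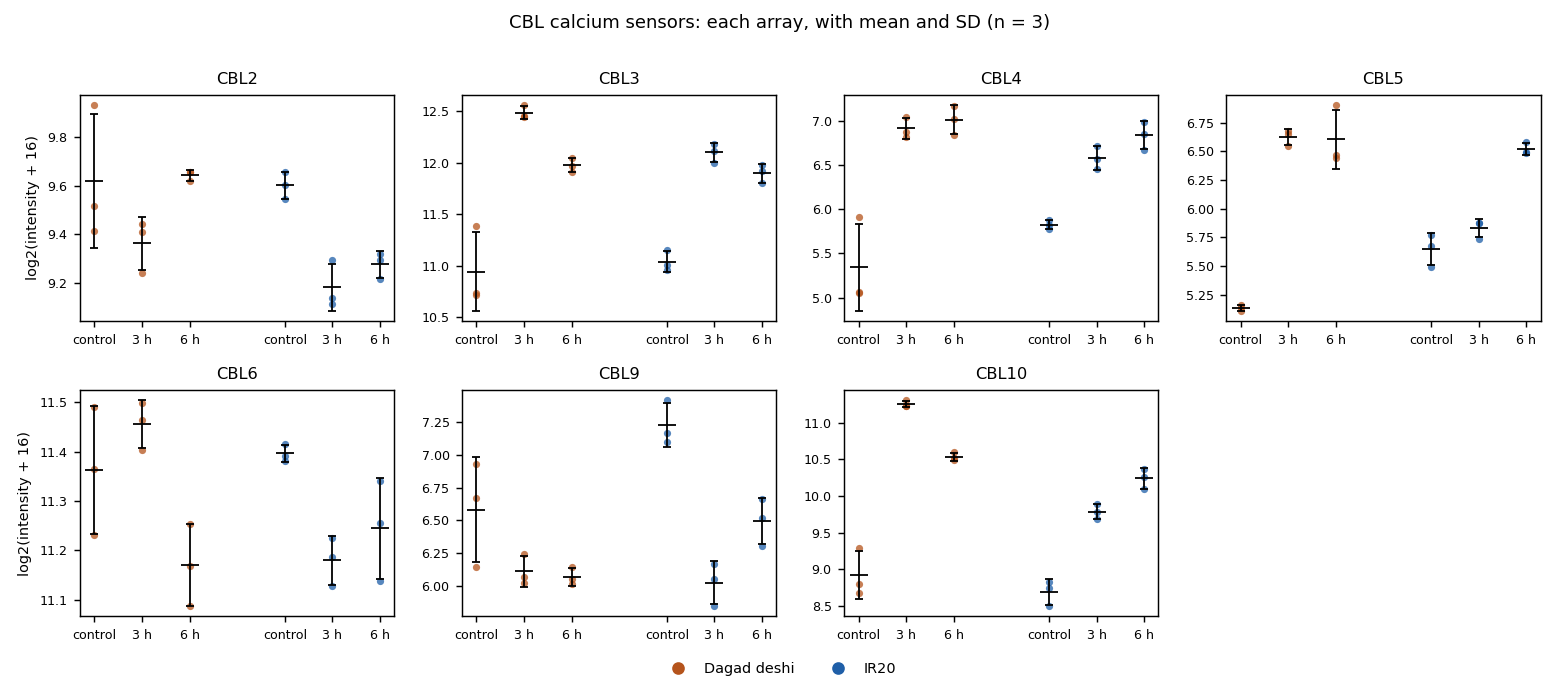
Level of the 7 CBL genes, as log2(intensity + 16), on each array (points) by group, with the mean and SD of 3 arrays (bars), Dagad deshi in brown and IR20 in blue. CBL10, CBL3, CBL4 and, in Dagad deshi, CBL5 stand above their controls at both times, while CBL2, CBL6 and CBL9 differ by less or by the opposite sign.

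Of the 22 kinases tested, 16 rose and 5 fell in Dagad deshi at 3 h, 12 and 5 at 6 h, and in IR20 12 rose and 2 fell at 3 h and 12 and 3 at 6 h, against the shares of all probe sets that rose (23.6%, 24.7%, 14.9% and 20.4%) and fell (47.3%, 45.7%, 21.9% and 25.5%). The largest rises at 3 h were those of CIPK5 and CIPK16 in both cultivars among the genes called, joined by CIPK23 in Dagad deshi and CIPK17 in IR20. CIPK5 read 7.06, 6.66 and 6.57 in Dagad deshi controls, 10, 9.87 and 9.77 at 3 h and 7.52, 7.44 and 7.16 at 6 h. In IR20 it read 6.66, 6.74 and 6.91, then 8.66, 8.78 and 8.59, then 7.42, 7.31 and 7.34. All drought arrays were above the controls of their cultivar, and all 3 h arrays above the 6 h arrays. The rise at 3 h was 3.12 ± 0.13 (8.68-fold) in Dagad deshi and 1.91 ± 0.13 (3.75-fold) in IR20, with adjusted p of 3.47e-11 and 2.54e-08. By 6 h the difference from controls was 0.61 and 0.59.

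CIPK16 was close to the floor in controls, with median intensities of 10.9 and 9.2 in Dagad deshi and IR20, and its probe set is of the type that can bind several transcripts. Its levels went from 5.20, 4.75 and 4.66 to 7.89, 7.57 and 8.01 at 3 h and to 7.81, 7.57 and 7.36 at 6 h in Dagad deshi. In IR20 they went from 4.62, 4.66 and 4.91 to 6.23, 6.46 and 6.25 and to 6.59, 6.38 and 6.13. No drought array came near a control array. The rises were 2.95 ± 0.18 and 2.71 ± 0.18 in Dagad deshi and 1.58 ± 0.18 and 1.64 ± 0.18 in IR20 (adjusted p = 1.81e-09, 4.41e-09, 4.18e-06 and 1.68e-06). The pseudocount makes them smaller than differences of log2 intensity alone. Since the control intensities lay near the array medians of 7.13 to 8.20, the size of the change in transcript is not known.

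CIPK23, which in rice activates the potassium channel AKT1 together with CBL1, differed most between the cultivars. In Dagad deshi its levels were 9.85, 9.38 and 9.43 in controls, 12.08, 11.96 and 12.05 at 3 h and 12.40, 12.10 and 12.29 at 6 h. In IR20 they were 11.26, 10.37 and 11.20 in controls, 11.24, 11.21 and 11.11 at 3 h and 11.25, 11.28 and 11.25 at 6 h. Every Dagad deshi drought array exceeded every other array of the gene, and in IR20 the groups overlapped. The rise was 2.48 ± 0.18 (5.56-fold) and 2.71 ± 0.18 (6.53-fold) in Dagad deshi, with adjusted p of 2.16e-08 and 7.40e-09, and 0.24 ± 0.18 and 0.32 ± 0.18 in IR20, with adjusted p of 0.395 and 0.186. Without IR20 control replicate 2 the IR20 values were -0.04 and 0.03. That array, low for CIPK23, also had the lowest summed intensity of the 6 root genes among IR20 controls, at 6332 beside 8876 and 9497. A second probe set of CIPK23 did not follow this pattern. It fell by 0.40 in Dagad deshi and 0.26 in IR20 at 3 h (adjusted p = 0.000392 and 0.0165) and differed by -0.17 and -0.19 at 6 h (adjusted p = 0.0638 and 0.0596). The 2 falls were not called with the index in the fit (-0.14 and -0.13), and the one in IR20 not without control replicate 2 or 3 h replicate 2 (adjusted p up to 0.0861).

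CIPK24, the rice counterpart of the kinase SOS2 and partner of CBL4 in sodium export, rose in all 4 comparisons. Its levels in Dagad deshi went from 9.27, 8.93 and 8.91 to 10.35, 10.29 and 10.24 at 3 h and to 10.62, 10.27 and 10.47 at 6 h, and in IR20 the 3 groups read 8.97, 8.95 and 9.30, then 9.91, 9.93 and 9.78, then 10.23, 10.13 and 10.37. Controls and drought arrays did not overlap. The rises were 1.26 and 1.42 in Dagad deshi and 0.80 and 1.17 in IR20, each ± 0.12, with adjusted p of 2.70e-07, 6.79e-08, 6.07e-05 and 8.05e-07. The kinase and its sensor CBL4 thus both rose in each comparison, on separate probe sets.

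CIPK12, whose overproduction makes rice more tolerant of drought, was dim in controls, with median intensities of 12.8 and 18.9. It rose by 0.99 ± 0.23 and 1.16 ± 0.23 in Dagad deshi and by 0.95 ± 0.23 at 6 h in IR20 (adjusted p = 0.00154, 0.000456 and 0.00296). At 3 h in IR20 the arrays read 5.50, 5.42 and 5.21 against controls of 5.12, 5.60 and 4.94, an overlap, with a difference of 0.15 ± 0.23 (adjusted p = 0.761), which was called at 0.70 with the index in the fit and at 0.34 without the 2 control arrays of highest index (adjusted p = 0.00279 and 0.0227). CIPK14, which takes part with CIPK15 in the response of rice cells to a fungal elicitor, rose by 1.35 and 1.33, each ± 0.11, in Dagad deshi (adjusted p = 8.02e-08 and 9.49e-08). Its Dagad deshi controls read 10.71, 11.09 and 11.12 and all other arrays of the gene lay between 11.99 and 12.62. In IR20 it differed by -0.01 at 3 h and rose by 0.39 at 6 h (adjusted p = 0.974 and 0.0103), and the latter call was lost with the index in the fit (0.16) and without 6 h replicate 2 (adjusted p = 0.0555).

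CIPK2, CIPK19 and CIPK29 rose by 1.1 to 1.63 in all 4 comparisons, with controls and drought arrays apart each time. CIPK29 and CIPK2 are next to each other on chromosome 7, with 0 annotated genes between them in the RefSeq table. Their drought differences were 1.54 and 1.47 for the 3 h groups of Dagad deshi and 1.28 and 1.63 for its 6 h groups, with 1.22 and 1.1, then 1.13 and 1.14, for IR20. The CIPK2 probe set used is of the type that can bind several transcripts. Among the genes with a probe set, the only other adjoining pair was CIPK30 and CIPK12 on chromosome 1. CIPK30 stayed at the floor and did not pass the filter, so whether this pair moved alike cannot be told. CIPK32 rose by 1.41 and 0.99 in Dagad deshi and by 0.47 and 0.65 in IR20, and its second, much dimmer probe set fell by 0.50 and 0.56 in Dagad deshi (adjusted p = 0.00215 and 0.000939), which was not called with the index in the fit (-0.13 and -0.20). CIPK21 rose by 0.52 to 0.99 in the 4 comparisons. CIPK8 rose by 0.30 and 0.31 in Dagad deshi and by 0.60 at 6 h in IR20, and its Dagad deshi calls did not hold without control replicate 3 or 3 h replicate 3 (adjusted p up to 0.0536) or without 6 h replicate 1 (0.0614).

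**Figure D3:**
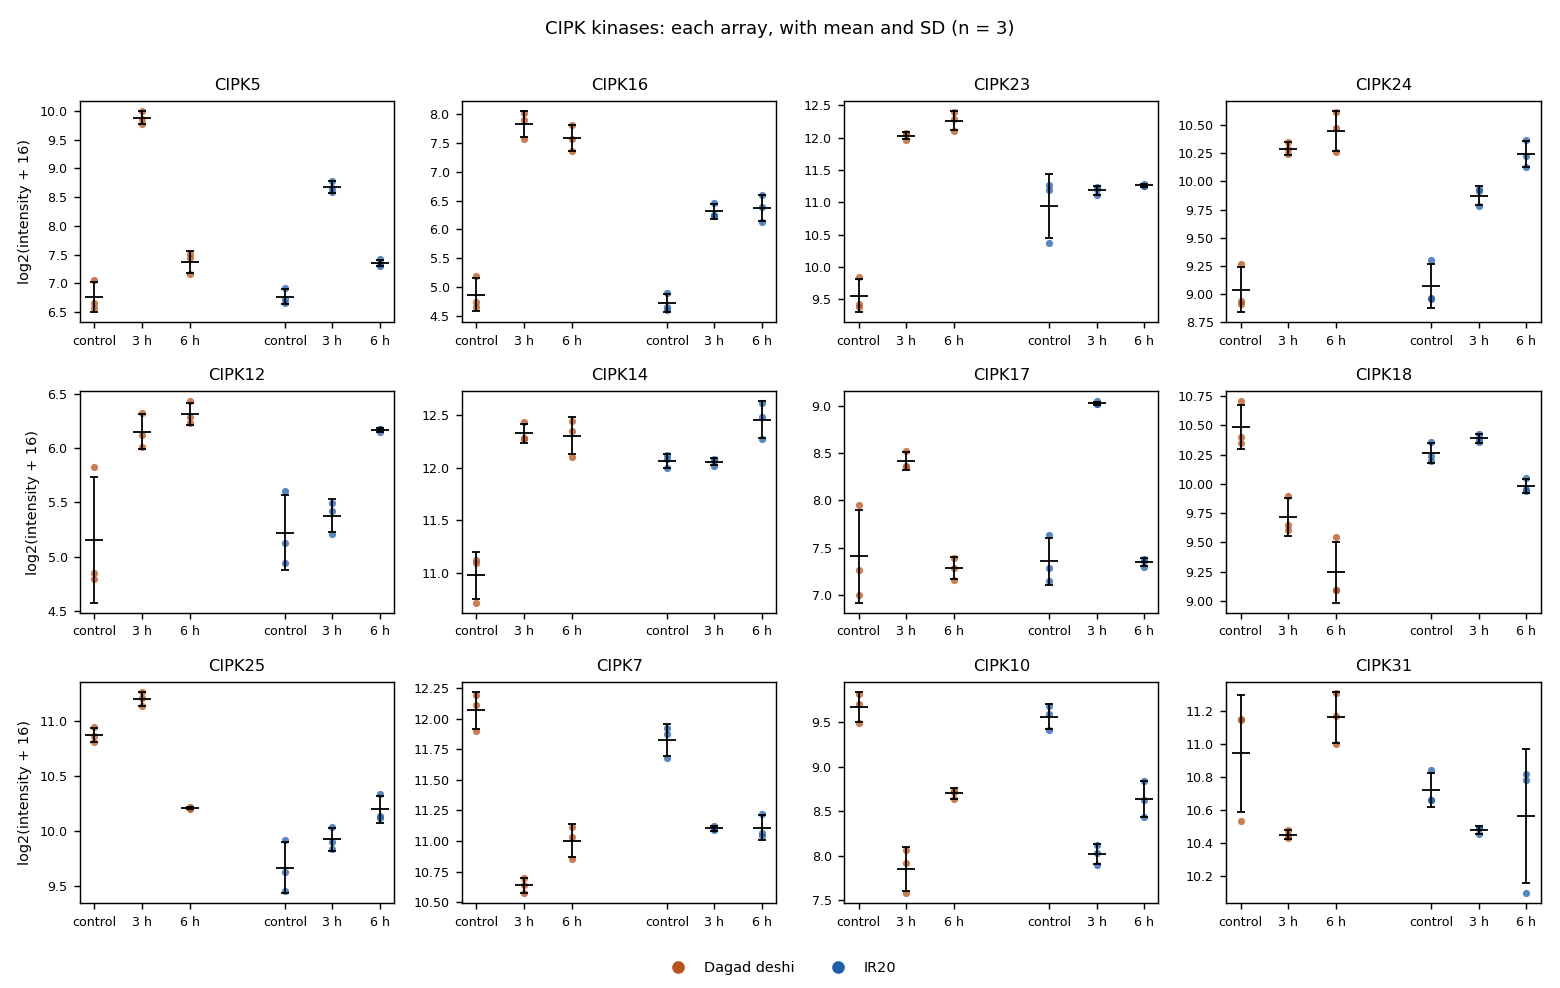
Level of 12 CIPK genes, as log2(intensity + 16), on each array (points) by group, with the mean and SD of 3 arrays (bars), Dagad deshi in brown and IR20 in blue, on axes of different range. CIPK5 and CIPK17 peak at 3 h, CIPK16 and CIPK24 are high at both times, CIPK23 is highest in the Dagad deshi drought groups and lowest in the Dagad deshi controls, and CIPK7 and CIPK10 are lower under drought in both cultivars.

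On the probe sets used, CIPK10 and CIPK7 were the kinases that fell at both times in both cultivars. Their further probe sets, given below, did not follow this in every comparison. CIPK10 read 9.71, 9.82 and 9.49 in Dagad deshi controls, 8.06, 7.91 and 7.58 at 3 h and 8.72, 8.64 and 8.74 at 6 h. In IR20 it read 9.69, 9.60 and 9.41, then 8.12, 8.03 and 7.90, then 8.44, 8.84 and 8.63. The 3 levels were separate in each cultivar, with the lowest at 3 h. It fell by 1.82 ± 0.13 and 0.97 ± 0.13 in Dagad deshi and by 1.55 ± 0.13 and 0.93 ± 0.13 in IR20 (adjusted p = 1.59e-08, 1.44e-05, 2.77e-07 and 3.14e-05). CIPK7, which has been tied to the chilling response of rice, read 11.90, 12.20 and 12.11 in Dagad deshi controls and 10.70, 10.57 and 10.64 at 3 h. It fell by 1.43 and 1.07 in Dagad deshi and by 0.72 and 0.72 in IR20, each ± 0.09 (adjusted p = 2.25e-09, 5.70e-08, 9.69e-06 and 6.29e-06). These 8 falls kept their call with the index in the fit.

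CIPK18 fell in Dagad deshi, by 0.77 ± 0.12 at 3 h and 1.24 ± 0.12 at 6 h (adjusted p = 6.10e-05 and 3.94e-07). Its levels there were 10.70, 10.35 and 10.40 in controls, 9.90, 9.60 and 9.65 at 3 h and 9.55, 9.10 and 9.10 at 6 h, with no overlap between controls and drought. In IR20 it differed by 0.13 and -0.28 (adjusted p = 0.543 and 0.075). With the index in the fit the difference at 3 h in Dagad deshi was -0.45 (adjusted p = 0.122). CIPK11 fell by 0.58 and 0.95 in Dagad deshi and by 0.61 at 6 h in IR20, on a probe set that can bind several transcripts. None of these 3 calls held with the index, where the differences were -0.05, -0.42 and -0.30, and those at 3 h in Dagad deshi and 6 h in IR20 were also lost without Dagad deshi control replicate 1, Dagad deshi 3 h replicate 2, IR20 control replicate 3 or IR20 6 h replicate 3 (adjusted p up to 0.0633 and 0.0557). Without the 2 control arrays of highest index the 3 h value in Dagad deshi was -0.39, not called.

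CIPK31, also known as OsCK1 in rice, was lower in Dagad deshi after 3 h, at -0.49 (adjusted p = 0.0253), and the other comparisons, at 0.22, -0.24 and -0.16, were not called. With the index in the fit the IR20 values were -0.62 and -0.62 and were called (adjusted p = 0.00859 and 0.00975). Its Dagad deshi controls read 10.53, 11.15 and 11.15 and the 3 h arrays 10.48, 10.45 and 10.43. The call did not hold without control replicate 2 or 3 or 3 h replicate 2 or 3 (adjusted p up to 0.0985). CIPK26 was the kinase with no call against controls in either cultivar, at 0.13, 0.19, -0.25 and 0.20. With the index in the fit it was called at 0.79 and 0.84 in Dagad deshi and 0.59 at 6 h in IR20, and without the 2 control arrays at 0.37 at 6 h in Dagad deshi (adjusted p = 0.0149, 0.00955, 0.00971 and 0.0303).

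The 6 h and 3 h drought groups were compared directly to ask which changes were short. In Dagad deshi 4 genes were higher and 10 lower at 6 h than at 3 h, against 5.33% and 6.16% of all probe sets, and in IR20 7 were higher and 5 lower, against 10.9% and 14.6%. The median difference of the 29 genes was -0.03 and 0.10, that of all probe sets 0.00 and 0.01. The index of these groups overlapped or differed less than from the controls, at 1.80 to 2.14 and 1.81 to 2.15 in Dagad deshi and 2.79 to 2.89 and 1.82 to 3.19 in IR20, and every call stayed with the index in the fit. The Dagad deshi count fell to 8 without 3 h replicate 1 and to 9 without 6 h replicate 3, and the IR20 count ranged from 8 to 16 when single arrays were left out.

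CIPK5 fell back most, by 2.51 ± 0.13 in Dagad deshi and 1.32 ± 0.13 in IR20 (adjusted p = 2.38e-08 and 2.87e-06). CIPK17 read 7.95, 7.27 and 7.00 in Dagad deshi controls, 8.36, 8.52 and 8.35 at 3 h and 7.29, 7.39 and 7.16 at 6 h. In IR20 it read 7.28, 7.15 and 7.63, then 9.01, 9.05 and 9.02, then 7.36, 7.30 and 7.38. The 3 h arrays stood above all others of their cultivar, and the 6 h arrays overlapped the controls. The fall from 3 h to 6 h was 1.13 ± 0.18 in Dagad deshi and 1.68 ± 0.18 in IR20 (adjusted p = 0.000905 and 8.15e-06), after rises of 1.01 and 1.67.

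CIPK6 and CIPK1 were also higher at 3 h than at 6 h in both cultivars. CIPK6 rose by 1.12 and 1.13 at 3 h and fell by 0.85 and 0.80 from there to 6 h (adjusted p = 0.00103 and 0.00061), which left 0.27 and 0.34 against controls, not called. Those values were called with the index in the fit, at 0.72 and 0.60, and without the 2 control arrays, at 0.47 and 0.28 (adjusted p = 0.0241, 0.00921, 0.00192 and 0.0404). CIPK1 rose by 0.34 and 0.49 and fell by 0.44 and 0.61 (adjusted p = 0.00179 and 3.67e-05). CIPK10, lowest at 3 h, recovered by 0.85 and 0.62 (adjusted p = 0.00064 and 0.00256). Among the sensors, CBL10 fell by 0.72 from 3 h to 6 h in Dagad deshi (adjusted p = 0.00219), and CBL5 rose by 0.69 in IR20 (adjusted p = 0.000354).

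CIPK25 went different ways in the cultivars. In Dagad deshi it read 10.81, 10.87 and 10.95 in controls, 11.27, 11.21 and 11.14 at 3 h and 10.21, 10.22 and 10.20 at 6 h. In IR20 it read 9.45, 9.91 and 9.63, then 9.90, 10.04 and 9.83, then 10.34, 10.12 and 10.14. The 6 h arrays were the lowest of the gene in Dagad deshi and the highest in IR20, where both cultivars reached a like level. The difference from controls at 6 h was -0.67 ± 0.10 in Dagad deshi and 0.53 ± 0.10 in IR20 (adjusted p = 2.74e-05 and 0.000294), and the Dagad deshi value was -0.44 with the index in the fit (adjusted p = 0.0593). The 3 h rise was 0.33 for Dagad deshi (adjusted p = 0.00786) and 0.26 for IR20, a value next to the threshold (adjusted p = 0.0496) that lost its call in 15 of the 18 fits that left out an array, with adjusted p up to 0.249.

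The cultivars were compared without stress and at each time of stress. In controls, 6 of the 29 genes were higher and 3 lower in IR20 than in Dagad deshi, against 17.2% and 35.9% of all probe sets. At 3 h of drought 3 were higher and 13 lower, against 18.1% and 16.0%, and at 6 h 1 was higher and 5 lower, against 10.5% and 11.6%. The median difference of the members was -0.05, -0.27 and -0.08, and that of all probe sets -0.03, 0.00 and 0.00. The summed root markers were higher in IR20 in each of these comparisons, as given above. Of the 6 root genes, 2 were called higher in IR20 controls, and 4 higher and 1 lower at each time of drought. The shares of all probe sets given in this paragraph apply to these counts too. The part of the root markers was not tested.

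CIPK23 had the largest cultivar difference in controls, 1.39 ± 0.18 higher in IR20 (adjusted p = 6.71e-05), and was lower there by 0.84 and 1.00 at 3 h and 6 h of drought (adjusted p = 0.00215 and 0.000982). Its second probe set did not share these differences. The control, 3 h and 6 h means on it were 9.89, 9.49 and 9.72 in Dagad deshi and 9.73, 9.48 and 9.54 in IR20. CIPK14 was 1.09 higher in IR20 controls (adjusted p = 7.36e-06) and not called at either time of drought, at -0.27 and 0.16. CIPK25 was lower in IR20 by 1.21 in controls and 1.28 at 3 h (adjusted p = 5.25e-07 and 8.61e-08) and differed by -0.01 at 6 h. CIPK16 was lower in IR20 by 1.51 at 3 h and 1.21 at 6 h, CIPK5 by 1.2 at 3 h and CBL10 by 1.47 at 3 h (adjusted p = 7.72e-06, 0.000132, 3.48e-06 and 5.24e-07), with controls that differed by -0.15, 0.01 and -0.23 and were not called. CIPK18 was the gene higher in IR20 at 6 h, by 0.74 (adjusted p = 0.000363).

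The change from control was tested for a difference between the cultivars. At 3 h, 15 of 29 genes differed in response, against 48.2% of all probe sets, with 12 more negative and 3 more positive in IR20. At 6 h 8 differed, against 43.0%, with 5 more negative and 3 more positive, and 13 differed without the 2 control arrays of highest index. The share of members at 3 h was thus close to that of all probe sets, and at 6 h below it. By direction, 27.0% of the brighter 22911 probe sets were more negative and 27.8% more positive in IR20 at 3 h. At 6 h these shares were 22.4% and 18.1%. The median difference in response was -0.32 and -0.13 among the members and 0.03 and 0.03 over all probe sets.

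CIPK23 had the largest difference in response, -2.23 ± 0.26 at 3 h and -2.39 ± 0.26 at 6 h (adjusted p = 1.28e-05 and 1.60e-05), of which the higher IR20 control level is a part by construction. This holds for the probe set used, since on the second one the means of both cultivars were lower under drought than in controls. CIPK16 responded less in IR20 by 1.37 at 3 h and 1.06 at 6 h, CIPK14 by 1.36 and 0.93, and CBL5 by 1.31 and 0.60 (adjusted p = 0.000617, 0.0055, 1.34e-05, 0.000682, 2.10e-05 and 0.0113). CBL10 and CIPK5 differed at 3 h, by -1.24 and -1.21 (adjusted p = 0.000123 and 0.00013), and by -0.06 and -0.02 at 6 h (adjusted p = 0.801 and 0.944). CIPK25 stood out at 6 h, with a response 1.2 ± 0.14 more positive in IR20 (adjusted p = 2.23e-05), and CIPK18 was more positive there by 0.90 and 0.96 (adjusted p = 0.000853 and 0.000852).

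**Figure D4:**
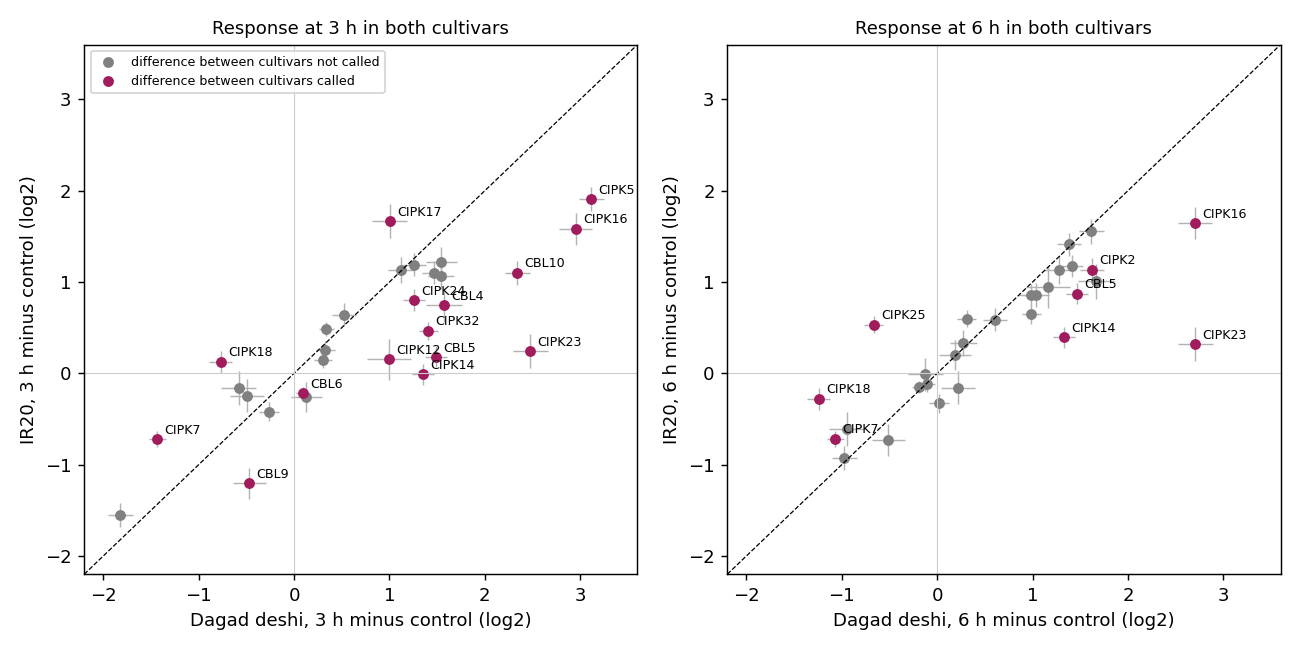
Log2 difference from control in Dagad deshi (x axis) and IR20 (y axis) at 3 h (left) and 6 h (right) for the 29 genes, with standard errors, a dashed line of equal response, and names where the test of the cultivar difference gave an adjusted p under 0.05. At 3 h 15 genes are named and 12 of them lie below the line, and at 6 h 8 are named, with CIPK23 and CIPK25 farthest from it on opposite sides.

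Where a gene had further probe sets, they were set against the probe set used. Of 11 further probe sets that were tested, 8, 5, 9 and 7 had the same sign as the one used at 3 h and 6 h in Dagad deshi and at 3 h and 6 h in IR20. The calls were opposite for 3, 2, 0 and 1 of them. For CIPK10, the brightest further probe set had control, 3 h and 6 h means of 8.13, 7.30 and 8.68 in Dagad deshi. At 6 h its mean thus lay above that of the controls, unlike the one used, though the arrays overlapped. In IR20 its means were 9.42, 8.49 and 8.77. A dimmer probe set fell by 2.61, 1.97, 1.88 and 1.38 in the drought comparisons, in the order above, like the one used. Another, near the floor, was higher by 0.86 for IR20 after 6 h (adjusted p = 0.0329). That call was lost with the index in the fit and in 5 of the fits that left out an array. For CIPK2, a second probe set rose by 1.1, 1.44, 0.99 and 1.45, and differed between the cultivars' controls by -0.13, where the one used was 0.61 higher in IR20 (adjusted p = 0.471 and 0.00159). For CIPK7 the second fell by 0.43, 0.53 and 1.01 and differed by -0.25 at 6 h in IR20 (adjusted p = 0.162), so that here the larger fall at 3 h was in IR20. For CIPK31 the second, dimmer, fell by 1.67 and 1.2 in Dagad deshi (adjusted p = 0.000251 and 0.00337). The Dagad deshi falls of these CIPK7 and CIPK31 probe sets were not called with the index in the fit, at -0.38 and -0.47 for CIPK7 and -0.65 and -0.19 for CIPK31.

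**Figure D5:**
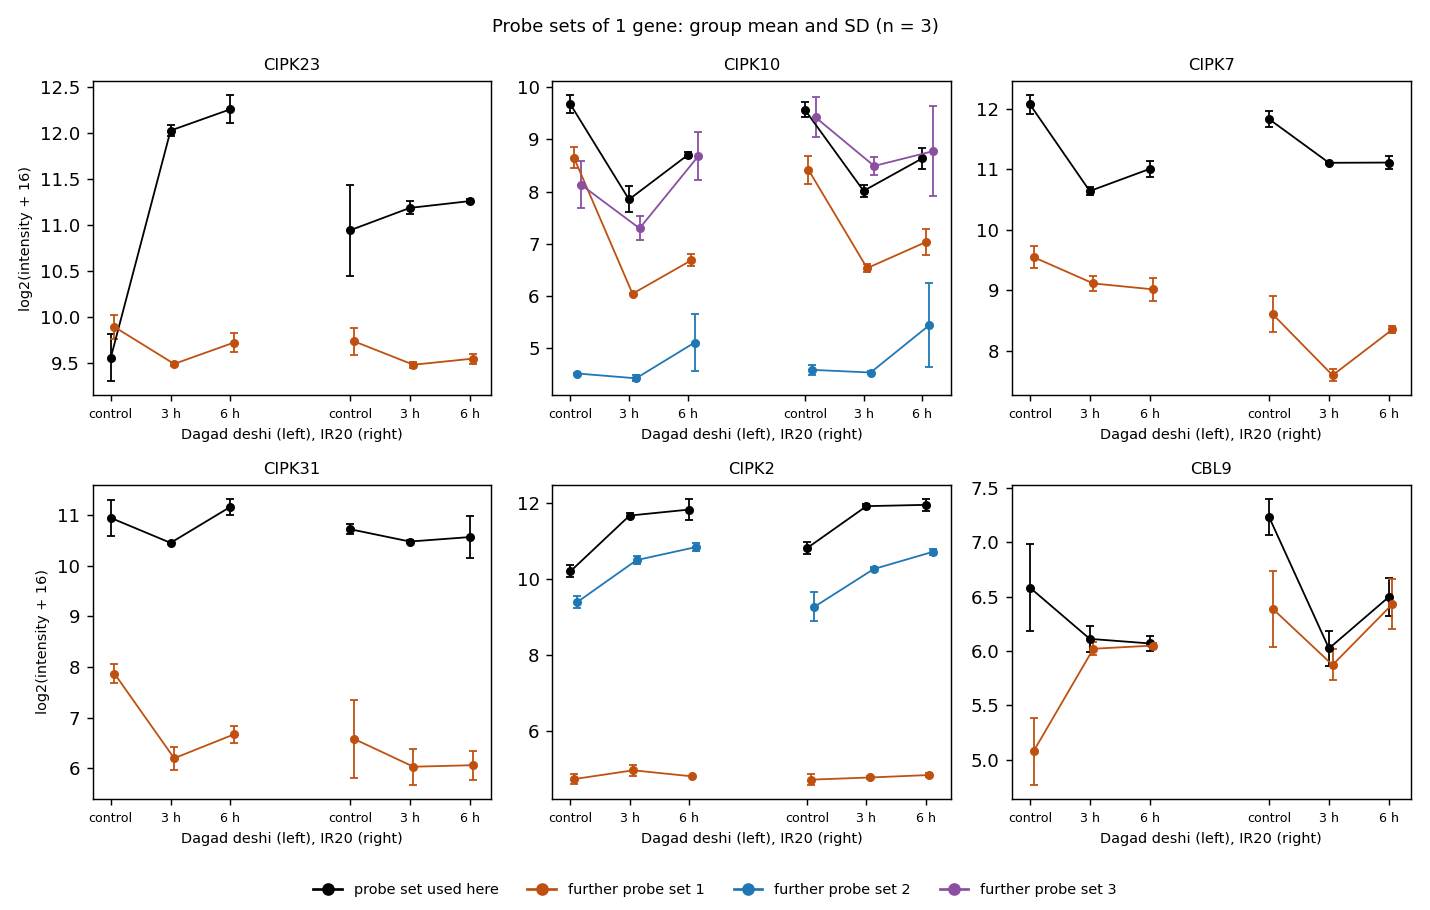
Group means of log2(intensity + 16) with SD (3 arrays) for all probe sets of 6 genes, Dagad deshi on the left and IR20 on the right of each panel, with the probe set used in black. The probe sets of CIPK2 that lie above the floor rise under drought in both cultivars, while those of CIPK23 and, in Dagad deshi, CBL9 go apart.

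Transporters, channels and oxidases, listed as possible targets of the pairs, were sought by name. The RefSeq table held 9 genes under the names sought, of which 7 had a probe set and passed the filter. In Dagad deshi 5 rose and 1 fell at each time, and in IR20 4 rose and 1 fell at 3 h and 3 rose and 1 fell at 6 h, against the same shares of all probe sets as for the kinases (rises 23.6%, 24.7%, 14.9% and 20.4%, falls 47.3%, 45.7%, 21.9% and 25.5%), with medians of 0.64, 0.40, 0.78 and 0.65. HAK1, a high-affinity potassium transporter, rose from 8.27, 8.43 and 8.25 to 10.84, 10.75 and 10.84 at 3 h and to 10.86, 10.87 and 10.86 at 6 h in Dagad deshi, by 2.50 and 2.54. In IR20 its controls were already at 10.85, 9.95 and 10.83 and the rise was 0.78 and 0.65, each ± 0.17 (adjusted p = 0.002 and 0.00558). As for CIPK23, IR20 control replicate 2 was the low array. Without it the IR20 rises were 0.48 and 0.36, and with the index in the fit the 6 h rise was 0.30 (adjusted p = 0.212). The HAK1 probe set used is of the type that can bind several transcripts. Control, 3 h and 6 h means on its second probe set were 6.31, 9.03 and 9.21 in Dagad deshi. In IR20 they were 8.57, 9.45 and 9.58.

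HAK5, a second high-affinity potassium transporter, rose by 1.23, 1.1, 1.44 and 1.02 across the 4 comparisons on its brighter probe set, and its other probe set rose by 1.09 and 1.48 in Dagad deshi (adjusted p = 3.32e-05 and 1.38e-06), fell by 0.84 at 3 h in IR20 (adjusted p = 0.00069) and differed by -0.12 at 6 h there. HKT8, which withdraws sodium from the xylem, fell by 1.63 and 1.53 in Dagad deshi and by 0.95 at 6 h in IR20 (adjusted p = 0.000133, 0.000229 and 0.0112). Its IR20 controls read 5.69, 7.20 and 6.05, and without replicate 2 the IR20 fall was 0.50 (adjusted p = 0.0207). None of the 3 HKT8 falls was called with the index in the fit, at -0.58, -0.50 and -0.32. AMT1-1, an ammonium transporter, rose by 0.64, 0.54, 0.64 and 1.03, of which the 3 h rise in IR20 was 0.42 without control replicate 2 and the Dagad deshi rises were not called with the index (0.48 and 0.37). AKT1, the potassium channel that CIPK23 activates, rose by 0.94 and 1.14 at 3 h in Dagad deshi and IR20 and stood at 0.26 and -0.10 at 6 h (adjusted p = 0.0373 and 0.462). The former was not called with the index (0.07) or without control replicate 2 or 6 h replicate 1 or 2 (adjusted p up to 0.117), and the latter was called at -0.22 without IR20 control replicate 2 (adjusted p = 0.0492). AKT1 is named for its link to CIPK23 and was chosen after its values were seen. The AKT1 probe set is of the type that can bind several transcripts.

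Of the channels, pumps and exchangers that shape the calcium signal, 11 were found in the RefSeq table under the names sought. Of these, 9 had a probe set and 8 passed the filter. In Dagad deshi 3 rose and 3 fell at each time, and in IR20 4 rose and 2 fell at 3 h and 3 rose and 2 fell at 6 h, against 23.6%, 24.7%, 14.9% and 20.4% of all probe sets for rises and 47.3%, 45.7%, 21.9% and 25.5% for falls, with medians of 0.01, 0.00, 0.30 and -0.07. ACA5, a calcium pump of the autoinhibited type, had the largest rise, from 8.63, 8.61 and 8.43 to 12.07, 12.13 and 12.03 at 3 h in Dagad deshi and from 8.57, 8.78 and 8.99 to 11.90, 11.99 and 11.83 in IR20. That was 3.52 and 3.13, with 3.30 and 3.21 at 6 h, each ± 0.10. CAX3, a calcium and proton exchanger, rose by 1.22, 1.17, 0.78 and 0.64, but none of these was called with the index in the fit, at 0.21, 0.18, 0.30 and 0.04. Its IR20 rises were 0.50 and 0.36 without control replicate 2, and the 6 h call was lost there and without 6 h replicate 3 (adjusted p up to 0.0921). GLR3.1, a glutamate receptor-like channel, fell by 1.86, 1.86, 0.65 and 1.51. ACA7 and ACA8, also of the pump family, moved in opposite directions, with ACA7 up by 1.06 and 0.25 and ACA8 down by 0.89 and 0.62 at 6 h in Dagad deshi and IR20. Both were named after their values were seen. ACA7 was near the floor, with median intensities in controls and at 6 h of 5.7 and 27.1 in Dagad deshi. In IR20 these were 6.7 and 11.6. The ACA7 rise in IR20 lost its call with the index in the fit and in 12 of the 18 fits that left out an array (adjusted p up to 0.136), and both ACA8 falls with the index (-0.34 and -0.29).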

How the data were processed

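Total RNA of whole seedlings was labelled with biotin by a 3 prime in vitro transcription protocol and hybridised to the Affymetrix rice genome array. The authors deposited 1 linear intensity per probe set and array, with GCOS named as the software in the submitters' processing notes. How probes were summarised and whether arrays were scaled is not given in the sources used here. The RMA values named in the study's methods were not used here.

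From the 57381 probe sets, 104 control probe sets were left out, 19 rice control probe sets were kept, and log2(intensity + 16) was taken. No further normalization was applied, since array medians lay between 7.13 and 8.20 in intensity. Probe sets above the 30th percentile of mean level (40094) were fitted to 6 group means in limma 3.58.1 (R 4.3.3; lmFit, contrasts.fit, eBayes with a trend) for 11 comparisons, with Benjamini-Hochberg adjustment within each. There were 0 columns from outside the series. The number of arrays, 3 a group, limits the precision. The procedure was tested on simulated arrays that had the same spread in all groups and no difference in index. The data differ from these in both, so that test does not cover them.

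Genes were named through the platform annotation and the RefSeq table of assembly ASM3414082v1 by their gene identifiers: 22436 probe sets had 1 gene, 95 several and 34850 none. The text names every CBL, in each drought comparison the 4 CIPK genes with the largest called rise and fall, the 3 with the largest called cultivar difference or difference in response, and CIPK3, CIPK12, CIPK15, CIPK23, CIPK24 and CIPK31 for their known roles. Pathway genes are named if among the 3 largest called changes of their list at 6 h. Other kinases named, and AKT1, ACA7 and ACA8, were chosen after their values were seen. The members and lists were chosen with earlier results of these data known.

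Alternatives were other pseudocounts (1 and 64), filters, normalizations, variance prior, choice of probe sets, the groups in the fit, a replicate block, the 3 prime to 5 prime index as a term, and leaving out the 2 control arrays of highest index or each of the 18 arrays.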

Additional observations from a re-analysis of the deposited data

Results flagged for a closer look

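For 23 responses, 15 at 3 h and 8 at 6 h, the test of the difference in response between cultivars gave an adjusted p under 0.05, against 48.2% and 43.0% of all probe sets tested. All values are the log2 response of IR20 minus that of Dagad deshi. Among the brighter 22911 probe sets, 27.0% were more negative and 27.8% more positive in IR20 at 3 h, and 22.4% and 18.1% at 6 h. Of the 7 sensors, 5 responded less, or fell more, in IR20 at 3 h, with -1.31 for CBL5, -1.24 for CBL10, -0.82 for CBL4, -0.74 for CBL9 and -0.31 for CBL6. CBL5 differed by -0.60 at 6 h.

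Among the kinases, CIPK23 differed by -2.23 at 3 h and -2.39 at 6 h, CIPK16 by -1.37 and -1.06, and CIPK14 by -1.36 and -0.93. The CIPK23 values are those of the probe set used and were not shared by its second probe set. At 3 h alone the differences were -1.21 for CIPK5, -0.94 for CIPK32, -0.84 for CIPK12 and -0.45 for CIPK24, and at 6 h -0.49 for CIPK2. Responses more positive in IR20 were those of CIPK18, by 0.90 and 0.96, CIPK7, by 0.71 and 0.35, CIPK17 at 3 h, by 0.66, and CIPK25 at 6 h, by 1.2. The second CIPK7 probe set went the other way at 3 h. Its control and 3 h means were 9.5 and 9.1 in Dagad deshi and 8.6 and 7.6 in IR20. The CIPK2 difference at 6 h was 0.003, not called, on the probe set that does not bind several transcripts.

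Several of these values lay near the threshold. The CIPK12 and CIPK17 differences at 3 h lost their call in 16 and 15 of the 18 fits that left out an array, with adjusted p up to 0.101 and 0.102, those of CIPK2 at 6 h and CIPK24 at 3 h in 8 each, up to 0.101 and 0.0945, and that of CIPK7 at 6 h in 6, up to 0.0901. CBL4 and CBL9 lost it in 3 each: CBL4 without Dagad deshi control replicate 3, Dagad deshi 3 h replicate 1 or IR20 3 h replicate 3 (adjusted p up to 0.0531), and CBL9 without IR20 control replicate 3, Dagad deshi 3 h replicate 1 or IR20 3 h replicate 3 (up to 0.0636). With the 3 prime to 5 prime index in the fit, CIPK17 (0.43), CIPK2 (-0.29) and CIPK24 (-0.52) were not called, and CIPK17 (0.29) not without the 2 control arrays of highest index.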

How the results depend on the processing

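With the replicate number as a replicate block, the members called were 27, 23, 19 and 21 for drought against control (3 h and 6 h in Dagad deshi, then IR20), against 27, 23, 20 and 21 without it. The other 7 counts moved by at most 1. Of the 175 gene results, 172 kept their call under the block, and the CIPK12 and CIPK17 differences in response at 3 h and the CIPK25 rise at 3 h in IR20 lost it. The labels do not tie the numbers to a shared source, and the arrays were not treated as paired: same-numbered arrays of different groups correlated from -0.55 to 0.36, with 12 of 45 pairs above 0.1 and 5 of 18 arrays closest to their own number. Among the 29 members, replicate 1 was the highest of 3 arrays for 21, 21 and 17 in the Dagad deshi control, 3 h and 6 h groups and for 3, 9 and 13 in those of IR20. These ranks were not counted over all probe sets. The block gave each number the same effect in both cultivars, so it cannot take up a pattern held by Dagad deshi alone. Counts moved by over 1.5 times in 3 cases. The control comparison of the cultivars gave 5 in place of 9 genes when only those groups were fitted. Fewer arrays then estimate the spread, and the spread itself differs. The median SD between replicates was 0.10 and 0.09 in Dagad deshi and IR20 controls, against 0.05 to 0.07 in the drought groups. The main fit shares its spread over all groups, which applies to every comparison with controls. The cultivar difference at 6 h gave 13 in place of 8 without the 2 control arrays of highest index, and 6 h against 3 h in Dagad deshi, 14 genes, ranged from 8 to 15 when single arrays were left out, with 8 without 3 h replicate 1 and 9 without 6 h replicate 3. The causes of these 3 moves were not tested. Signs turned for CBL2 in Dagad deshi at 3 h (0.137 with the index) and at 6 h (-0.009 after quantile normalization and -0.082 to 0.18 when single arrays were left out), CBL6 there at 3 h (-0.076 after quantile normalization) and 6 h (0.037 with the index), and CBL9 there (0.236 and 0.23 for the mean of its probe sets). They also turned for CIPK2 without probe sets that bind several transcripts (0.003 for the 6 h difference in response and -0.128 between controls), and for CIPK7 between cultivars at 3 h (-0.525 for the mean of its probe sets). Of the 175 results, the index as a term left 158 as they were, fitting only the groups compared 153, and the 60th percentile filter 175, while the mean of all probe sets moved 35 of 43 values by more than the replicate SD. Dim probe sets, among them CBL4, CBL5, CIPK12 and CIPK16 in controls, have differences that the pseudocount makes smaller than those of log2 intensity alone.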
